A study of Rattus norvegicus with 14 samples.

Results

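The 8 genes described here encode proteases of the lysosome: cathepsin B (Ctsb), cathepsin C (Ctsc), cathepsin D (Ctsd), cathepsin H (Ctsh), cathepsin K (Ctsk), cathepsin S (Ctss), cathepsin Z (Ctsz) and legumain (Lgmn). They were chosen by name, as every non-control probe whose gene symbol was one of these 8, and they are 8 of 35508 names on the array. Ctss had 2 probes and each other gene had 1, so 9 probes were read on every array. The data are 14 one-colour Agilent arrays of total RNA from 7 rat lines, with 2 arrays (A and B) for each. The study set lines derived from blastocysts beside lines derived from bone marrow, both grown under the culture condition for multipotent adult progenitor cells and described as hypoblast stem cells, with a mesenchymal line as the control. The blastocyst lines were Fi1 (Fischer, male), Fi2 (Fischer, female) and Wk8 (Wistar-Kyoto, female). The bone marrow lines were CL19 (Fischer, female), 3C3 (Fischer, male) and RMAPC-1 (Fischer, male). The mesenchymal control was the single line RClone-2 (Fischer, male), so that its group has no spread of its own and any difference from it is a difference from 1 line. The 6 blastocyst and bone marrow lines are called stem cell lines below.

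Lysosomal cathepsins are made as inactive proenzymes, tagged with mannose 6-phosphate in the Golgi and carried by the mannose 6-phosphate receptors to endosomes, where acid and other proteases trim them to their active form. Ctsd is an aspartic protease, legumain cuts after asparagine and also trims several cathepsins, and the other members are papain-like cysteine proteases. The hypoblast, or primitive endoderm, gives rise to the visceral and parietal endoderm of the yolk sac, and the visceral endoderm takes up maternal protein and digests it in large lysosomes. Ctsk is best known from osteoclasts, Ctss from antigen-presenting cells, and Ctsc from immune cells, where it activates granule proteases.

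The probes are 60 bases long and their positions are those in the file headers, on the rat build rn4. The 4 sequences shown are those of the probes that cross an intron in rn4 or have no stop codon in at least 2 of their 3 reading frames, for members whose level differed between groups or between probes. The Ctsh probe lies at chr8:94986941-94989247, a span of 2307 bases, and the Lgmn probe at chr6:126669400-126669708 on the minus strand, a span of 309 bases, so both cross an intron. The Ctss probe A_44_P355928 lies at chr2:190466474-190466533, and the Ctsz probe has no position in the headers.
Ctsh: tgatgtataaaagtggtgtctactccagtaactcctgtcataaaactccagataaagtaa
Ctss A_44_P355928: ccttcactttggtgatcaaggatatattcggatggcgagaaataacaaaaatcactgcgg
Ctsz: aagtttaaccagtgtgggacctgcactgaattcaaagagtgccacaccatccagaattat
Lgmn: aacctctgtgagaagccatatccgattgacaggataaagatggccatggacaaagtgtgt
The other probes lie at chr15:42423613-42423672 (Ctsb), chr1:144661035-144661094 (Ctsc), chr1:202619669-202619727 on the minus strand (Ctsd), chr2:190405601-190405660 (Ctsk) and chr2:190466683-190466742 (Ctss, A_44_P1004731). Ctsk and Ctss lie close together on chromosome 2, with 60813 bases between the Ctsk probe and the nearer Ctss probe.

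A promoter motif is of use here because the lysosomal regulator Tfeb and its relatives are known to bind the CLEAR element, whose inner letters are TCACGTGA and which holds the E-box CACGTG. Windows of 300 bases (250 before to 50 after the gene start) came from RefSeq, build GRCr8, and 7 of the 8 members had one. Both motifs read the same on either strand. CACGTG was in 6.42% of the 33469 windows in the table, or in 7.08% of 27457 genes, and TCACGTGA in 0.777% of windows and 0.896% of genes. Among the 7 members with a window, Ctsd held them and the other 6 did not. Ctsd had CACGTG at 2 places, beginning 157 and 10 bases upstream of the start, the latter inside a TCACGTGA. Of 108 other lysosomal genes on the lists for hydrolases, membrane proteins, sorting and the proton pump, 82 had a window, and CACGTG was in 18 of these (22.0%) and TCACGTGA in 8 (9.76%). The 170 bases upstream of the start are shown for Ctsd and for Ctsc and Ctsz, the members with the largest differences from the mesenchymal line in each direction, with CACGTG in capitals. They are chr1:206968822-206968991 on the minus strand, chr1:151440879-151441048 on the plus strand and chr3:183653848-183654017 on the minus strand of GRCr8.
Ctsd: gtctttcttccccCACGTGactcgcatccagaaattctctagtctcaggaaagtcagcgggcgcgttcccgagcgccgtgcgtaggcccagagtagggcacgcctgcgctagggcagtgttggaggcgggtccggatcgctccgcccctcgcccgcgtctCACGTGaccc
Ctsc: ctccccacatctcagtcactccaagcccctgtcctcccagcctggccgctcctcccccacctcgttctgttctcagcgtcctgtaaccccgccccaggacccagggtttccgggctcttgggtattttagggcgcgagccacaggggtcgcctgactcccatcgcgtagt
Ctsz: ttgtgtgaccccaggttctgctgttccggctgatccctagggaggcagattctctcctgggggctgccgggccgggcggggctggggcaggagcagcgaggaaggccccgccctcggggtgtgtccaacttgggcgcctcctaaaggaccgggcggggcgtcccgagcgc
A match shows only that these letters are in the window.

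On each of the 14 arrays 61.8% to 68.1% of spots were well above background. Signal before scaling differed by group. Its 75th percentile was 746 to 891 on the blastocyst, 559 to 660 on the bone marrow and 599 to 631 on the RClone-2 arrays. The mean log2 signal of the spiked-in control transcripts was 11.1 to 11.7, 10.4 to 10.6 and 10.1 to 10.3 in that order. The 2 arrays of a line correlated at r = 0.971 (RMAPC-1) to 0.995 across probes. The labels were set against marker genes. For 10 primitive endoderm markers (Gata4, Gata6, Sox17 and Foxa2 among them), stem cell lines minus RClone-2 ran from 1.88 to 11.1 (log2, median 7.35). Of the 10, 9 were also above background on both RClone-2 arrays. Of 18 mesenchymal markers, 15 passed the background filter, with log2 differences of -14.7 to -3.97. Col3a1, Col5a2, Dcn, Pdgfrb, Postn, Prrx1, Spp1, Thbs2 and Thy1 passed it through RClone-2 alone, so their direction was largely set in advance. The other markers tested, Col1a1 among them, were above background on all 14 arrays. Fap and Lum were above background on no array and Nt5e on 1, from a blastocyst line, so these were not tested. Levels are log2 values of the processed signal with the array's 75th percentile set to 0, and a level of one probe cannot be set against that of another. Tests were made with limma on line means, with p-values adjusted over 24863 genes, and in bulk RNA fewer cells of a type and less RNA per cell cannot be told apart.

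Against the mesenchymal line, 5 of the 8 members changed in the stem cell lines. Ctsc and Ctsz were higher, by far the larger differences, and Ctsd, Ctsb and Ctsh were lower. Of all genes tested in this comparison, 24.7% passed as higher and 22.5% as lower. The members' median difference was -0.29, beside 0.03 for all genes tested, and single members ran from -2.87 to 9.47 on the log2 scale.

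**Figure D1:**
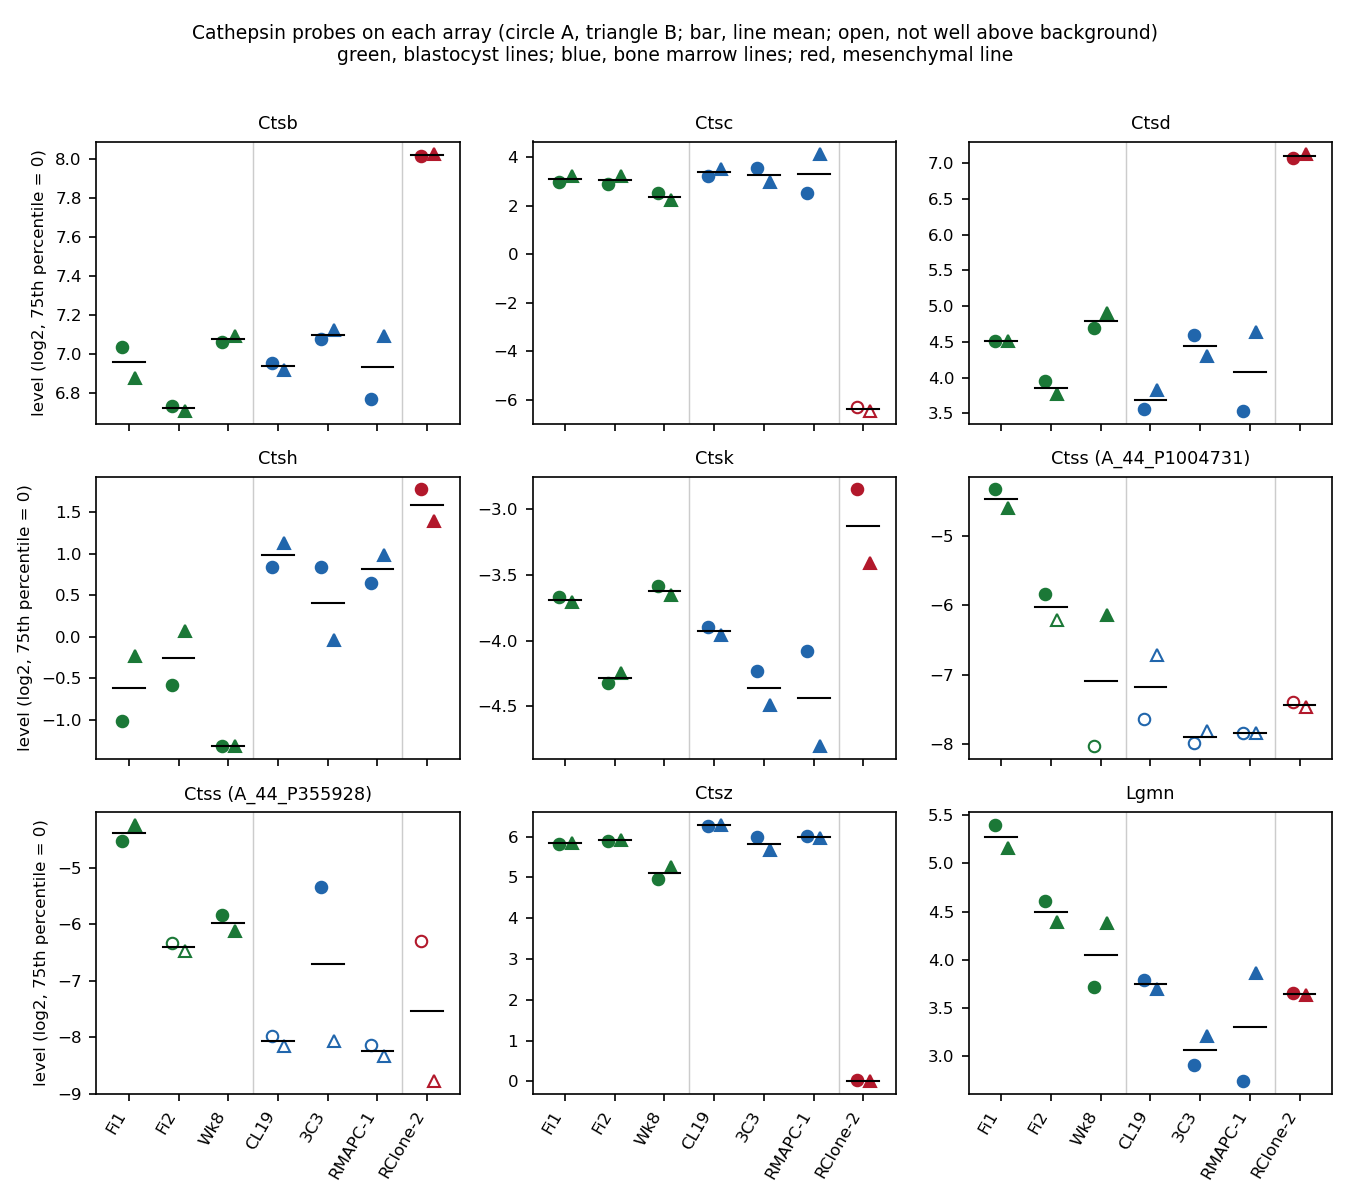
Level of each cathepsin probe (y axis, log2 of the processed signal with the 75th percentile of the array at 0) in each of the 7 lines (x axis), with circles for array A, triangles for array B, a bar for the line mean and open symbols for arrays not well above background. Ctsc lies between 2.24 and 4.12 on the 12 stem cell arrays and at -6.32 and -6.47 on the RClone-2 arrays, and Ctsb and Ctsd are highest in RClone-2.

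Ctsc, also called dipeptidyl peptidase 1, removes dipeptides from the N-terminus of proteins. Its level was 2.97 and 3.21 on the A and B arrays of Fi1, 2.88 and 3.23 of Fi2, 2.51 and 2.24 of Wk8, 3.23 and 3.51 of CL19, 3.56 and 2.97 of 3C3, and 2.51 and 4.12 of RMAPC-1. In RClone-2 it was -6.32 and -6.47, not well above background on either array. All 12 stem cell arrays were therefore far above both control arrays, with no overlap. Since the control gives only a limit, Ctsc was at least 666-fold higher in the stem cell lines (log2 difference 9.47, higher in 6 of 6 lines). Ctsc passed the background filter through the stem cell lines alone, so its direction was largely set in advance. The bound was at least 564-fold for the blastocyst lines and at least 786-fold for the bone marrow lines.

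Ctsz is a carboxypeptidase that removes single residues from the C-terminus. It was 5.83 and 5.84 in Fi1, 5.89 and 5.92 in Fi2, 4.97 and 5.25 in Wk8, 6.25 and 6.29 in CL19, 5.99 and 5.66 in 3C3, and 6.01 and 5.96 in RMAPC-1. In RClone-2 it was 0.04 and 0.00, above background on both arrays. The stem cell lines were 55.8-fold higher (log2 difference 5.80 ± 0.33 SE, limma adjusted p = 5.57e-05, 6 of 6 lines). Ctsz passed under every alternative in which it was tested in each comparison with the mesenchymal line. So did Ctsc, whose direction was largely set in advance by the filter. Wk8, the Wistar-Kyoto line, was the lowest stem cell line for both.

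Ctsd, which needs acid to act and degrades proteins broadly, went the other way. It was 4.51 and 4.51 in Fi1, 3.95 and 3.77 in Fi2, 4.69 and 4.90 in Wk8, 3.56 and 3.83 in CL19, 4.59 and 4.30 in 3C3, and 3.53 and 4.63 in RMAPC-1, against 7.07 and 7.12 in RClone-2. The 2 control arrays exceeded all 12 stem cell arrays, and Ctsd was 7.29-fold lower in the stem cell lines (log2 difference -2.87 ± 0.40 SE, limma adjusted p = 0.00216).

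Ctsb acts both as an endopeptidase and as a carboxypeptidase that removes dipeptides. Its 12 stem cell arrays lay close together, between 6.71 and 7.12 with line means spanning 0.38, and RClone-2 was at 8.02 on both arrays. It was 2.10-fold lower in the stem cell lines (log2 difference -1.07 ± 0.18 SE, limma adjusted p = 0.00454). On this scaling the span of Ctsb over the 6 stem cell lines was at the 7.24 percentile of all genes tested. Genes of like brightness were not compared separately.

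Ctsh is an aminopeptidase. It was 1.77 and 1.39 in RClone-2, above every stem cell array, of which the highest was CL19 B at 1.12. It was 3.00-fold lower in the stem cell lines (log2 difference -1.58 ± 0.40 SE, limma adjusted p = 0.0212). That call was lost without the A arrays (limma adjusted p = 0.158) and with the slide pair as a term (0.0539). The origins differed here: the blastocyst lines were 4.98-fold below the control (limma adjusted p = 0.00675), while the bone marrow lines differed from it by -0.85 ± 0.43 SE and did not pass (limma adjusted p = 0.157).

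Ctsk, a collagen-cutting protease, did not pass for all stem cell lines together (log2 difference -0.92 ± 0.31 SE, limma adjusted p = 0.0532), but it passed, with the same sign, under 11 of 26 alternatives, among them without Fi2 (0.0450), Wk8 (0.0466), CL19 (0.0474) or the B arrays (0.0343). Its stem cell arrays ranged from -4.80 (RMAPC-1 B) to -3.59 (Wk8 A), and both RClone-2 arrays were above them at -2.85 and -3.41. In the bone marrow lines alone it was 2.16-fold lower than in RClone-2 (limma adjusted p = 0.0373), a call lost with other background correction (0.304) and without Fi1 (0.0561), 3C3 (0.0860), RMAPC-1 (0.0841), the A arrays (0.101) or array A of RMAPC-1 (0.0579). Lgmn (0.34 ± 0.46 SE) and Ctss (0.91 ± 0.86 SE) did not pass (limma adjusted p = 0.575 and 0.421). Their 95% intervals, -0.79 to 1.48 for Lgmn and -1.19 to 3.00 for Ctss, leave room for sizeable differences in either direction.

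Taken by origin, 5 members passed for the blastocyst lines against RClone-2 (2 higher, 3 lower), where 22.3% of all genes were higher and 26.4% lower. For the bone marrow lines 5 passed as well (2 higher, 3 lower), where 26.8% of all genes were higher and 19.5% lower. Both comparisons, and the one over all stem cell lines, share the same control line. Ctsc, Ctsz, Ctsd and Ctsb passed in both, with log2 differences of 9.23, 5.60, -2.71 and -1.10 in the blastocyst lines and 9.71, 6.01, -3.02 and -1.03 in the bone marrow lines. Ctsh was the further member called for the blastocyst lines and Ctsk for the bone marrow lines. For the blastocyst lines the Ctsh call was lost without the A arrays (limma adjusted p = 0.0714), and those of Ctsd (0.0587) and Ctsb (0.0683) with the slide pair as a term.

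**Figure D2:**
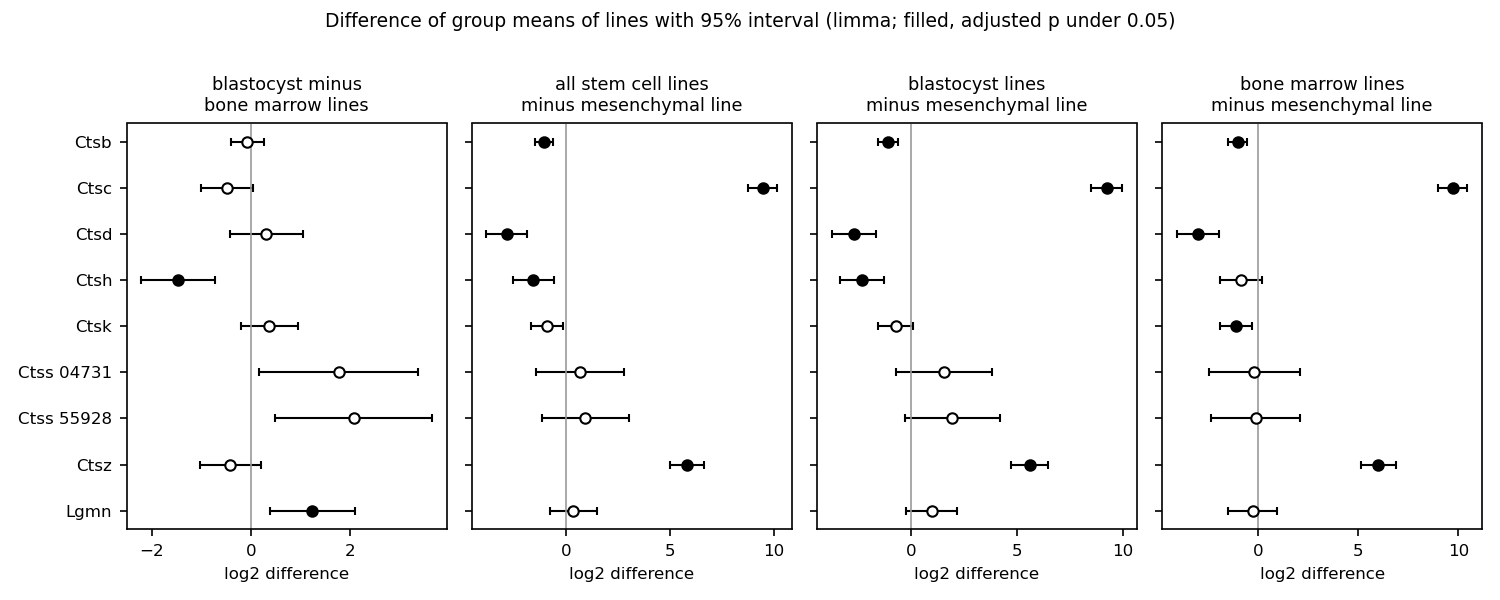
Log2 difference (x axis) of each cathepsin probe (y axis) in the 4 comparisons, with its 95% confidence interval from limma and filled symbols where the adjusted p was under 0.05. Ctsc and Ctsz lie far to the right in each comparison with the mesenchymal line, at 9.47 and 5.80 for all stem cell lines, whereas between the origins the differences run from -1.46 for Ctsh to 2.08 for Ctss.

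Between the origins, Lgmn was higher and Ctsh lower in the blastocyst lines than in the bone marrow lines, and the other 6 members did not pass. Of all genes tested 8.25% passed as higher and 24.6% as lower in the blastocyst lines. The members' median difference was 0.12 beside -0.22 for all genes. Lgmn was 5.40 and 5.16 in Fi1, 4.61 and 4.39 in Fi2, 3.72 and 4.38 in Wk8, 3.79 and 3.70 in CL19, 2.91 and 3.21 in 3C3, and 2.74 and 3.86 in RMAPC-1, with 3.65 and 3.64 in RClone-2. All 3 blastocyst line means exceeded the 3 bone marrow means, but single arrays overlapped, since Wk8 A lay below CL19 A and RMAPC-1 B. The difference was 2.37-fold (log2 1.24 ± 0.35 SE, limma adjusted p = 0.0410), and it kept its sign under all 28 alternatives. The call was lost without any of Fi1 (limma adjusted p = 0.0759), Fi2 (0.0802), CL19 (0.0586), 3C3 (0.119) or RMAPC-1 (0.109), without the A arrays (0.0688), the B arrays (0.0797) or array A of RMAPC-1 (0.0934), and under other background correction (0.0895), spike-in scaling (0.106) or a slide term (0.213).

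Ctsh was -1.02 and -0.23 in Fi1, -0.59 and 0.07 in Fi2, and -1.32 and -1.32 in Wk8. It was 0.84 and 1.12 in CL19, 0.84 and -0.04 in 3C3, and 0.64 and 0.98 in RMAPC-1. The line means of the origins did not overlap, and of single arrays only Fi2 B exceeded 3C3 B. The blastocyst lines were 2.76-fold lower (log2 difference -1.46 ± 0.31 SE, limma adjusted p = 0.0192), with the same sign in all 28 alternatives. The call was lost without Fi1 (limma adjusted p = 0.0541), CL19 (0.0559), RMAPC-1 (0.0643) or the A arrays (0.144), and unscaled (0.0662). Slides 1 and 3 held the blastocyst lines together with CL19, and slides 2 and 4 held 3C3, RMAPC-1 and RClone-2, so slide and origin are partly confounded. Within slides 1 and 3 the differences were 0.87 for Lgmn (limma adjusted p = 0.394) and -1.71 for Ctsh (0.203), in the same directions and not past the threshold. In that setting 0 of all 24863 genes passed. Endoderm markers also differed in this contrast. Of 10 visceral endoderm markers, 0 passed as higher and 4 (Apob, Cited1, Hnf4a and Rbp4) as lower by limma in the blastocyst lines, with a log2 difference of -2.98 ± 0.43 SE for Cited1. Apob was above background on 1 blastocyst and 5 bone marrow arrays. Mean levels of Ttr (-3.66 blastocyst, -5.08 bone marrow), Afp (-3.59, -4.50) and Apoa1 (-4.73, -5.78) were higher in the blastocyst lines, and those of the other markers were lower. Amn differed by -3.76 ± 1.15 SE and did not pass (adjusted p = 0.0508 by limma). The summed level of the 10, carried mainly by Amn and Cubn, was 5.34 to 53.7 on the blastocyst and 96.1 to 176.9 on the bone marrow arrays. Of 8 parietal endoderm markers 5 were higher and 0 lower (Plat by 3.24 ± 0.39 SE on the log2 scale), with sums of 645.7 to 895.4 and 483.4 to 655.2. Their part in the levels of Lgmn and Ctsh was not tested.

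Ctss, an endopeptidase that stays active near neutral pH, was close to the detection limit. The probe that stands for it was -4.52 and -4.24 in Fi1, -6.33 and -6.47 in Fi2, -5.83 and -6.13 in Wk8, and -7.98, -8.14, -5.33, -8.06, -8.14 and -8.32 on the bone marrow arrays in the order CL19, 3C3, RMAPC-1. It passed the scanner's background test on both Fi1 arrays, both Wk8 arrays and 3C3 A, and on no array of Fi2, CL19, RMAPC-1 or RClone-2. The second probe, 149 bases downstream of it, was above background on both arrays of Fi1, on Fi2 A and on Wk8 B, and on no bone marrow or control array, so both probes were clearest in Fi1. The difference between origins, 2.08 ± 0.65 SE for the first probe and 1.78 ± 0.66 SE for the second, did not pass (limma adjusted p = 0.0540 and 0.0843). With other background correction it was 0.23, and with 6 other settings it passed. The neighbouring gene Ctsk was above background on all 14 arrays and differed by 0.38 ± 0.24 SE between the origins (limma adjusted p = 0.261).

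The remaining members had smaller estimated differences between the origins, but the intervals of Ctsc, Ctsz and Ctsd leave room for sizeable ones. Ctsc was -0.48 ± 0.21 SE (blastocyst minus bone marrow, 95% interval -1.005 to 0.05), Ctsz -0.41 ± 0.25 SE (-1.03 to 0.21), Ctsd 0.32 ± 0.30 SE (-0.43 to 1.06) and Ctsb -0.07 ± 0.14 SE (-0.40 to 0.26), and none passed limma's adjusted threshold. For Ctsc the line means did not overlap (blastocyst 3.09, 3.05 and 2.37, bone marrow 3.37, 3.26 and 3.31), although the 2 RMAPC-1 arrays were 1.61 apart.

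Among lines of one origin, the F-test over arrays called 1 member. Ctsz differed among the blastocyst lines (limma adjusted p = 0.0155), with Wk8 below Fi1 and Fi2 and a 1.74-fold range of line means. Of all genes tested 8.5% passed among the blastocyst lines and 0.768% among the bone marrow lines, where 0 members passed by limma (1, Ctsz, at an unadjusted p under 0.05). These tests rest on the 2 arrays of each line, and nothing in the labels says that these came from separate cultures. For Lgmn the line means were 5.28 (Fi1), 4.50 (Fi2), 4.05 (Wk8), 3.74 (CL19), 3.30 (RMAPC-1) and 3.06 (3C3) with RClone-2 between CL19 and RMAPC-1. Neighbours in that order differed by no more than the arrays of RMAPC-1 did (1.12). Among the blastocyst lines Lgmn did not pass (limma adjusted p = 0.105, a 2.35-fold range).

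Over the 6 stem cell lines, whose points share the arrays' scaling, Ctsc and Ctsz varied together (Pearson r = 0.95) and both ran with Ctsh (r = 0.91 and 0.86), whereas Ctsd ran against Ctsz (r = -0.86). Lgmn ran with Ctss (r = 0.79), and Ctsh ran against Ctss (r = -0.80). Ctss was above background on no array of Fi2, CL19 or RMAPC-1, so these 2 values rest largely on signal near background. None of these correlations was tested. For the 6 members whose line means spanned over 2 on the log2 scale (all but Ctsb and Ctsk), the genes most like them over all 7 lines were found among 4108 named genes with a span as wide. For Ctsc they were Rbbp9, Apoe (the lipid carrier apolipoprotein E) and Spint2 (a serine protease inhibitor), each with r rounding to 1.000 or 0.999, and for Ctsz Tp53i11, Epb41l3 and Asic1, with r from 0.999 to 1.000. These 2 profiles are set by the distance of RClone-2 from the other lines. Apoe was between 7.69 (Wk8) and 8.61 (CL19) in the stem cell lines and at -1.38 in RClone-2. For Ctsd they were Cby1, Ptprn and Ssmem1 (r = 0.995, 0.994 and 0.993). For Ctsh they were Apln (which encodes the peptide apelin, r = 0.989), Col18a1 (collagen XVIII, 0.972) and Fam81a (0.965). For Lgmn they were Ttll2 (r = 0.991), Matn4 (0.941) and Krt20 (0.941), and for Ctss Nat8l, Ubd and Slc15a3 (r = 0.930, 0.930 and 0.928). Some of these were near background: outside Fi1, their brightest line, Ttll2 lay at -5.52 to -6.99, Nat8l at -6.66 to -8.23 and Ubd at -6.15 to -7.89. The lowest signal well above background was at -5.80 to -6.66, depending on the array.

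**Figure D3:**
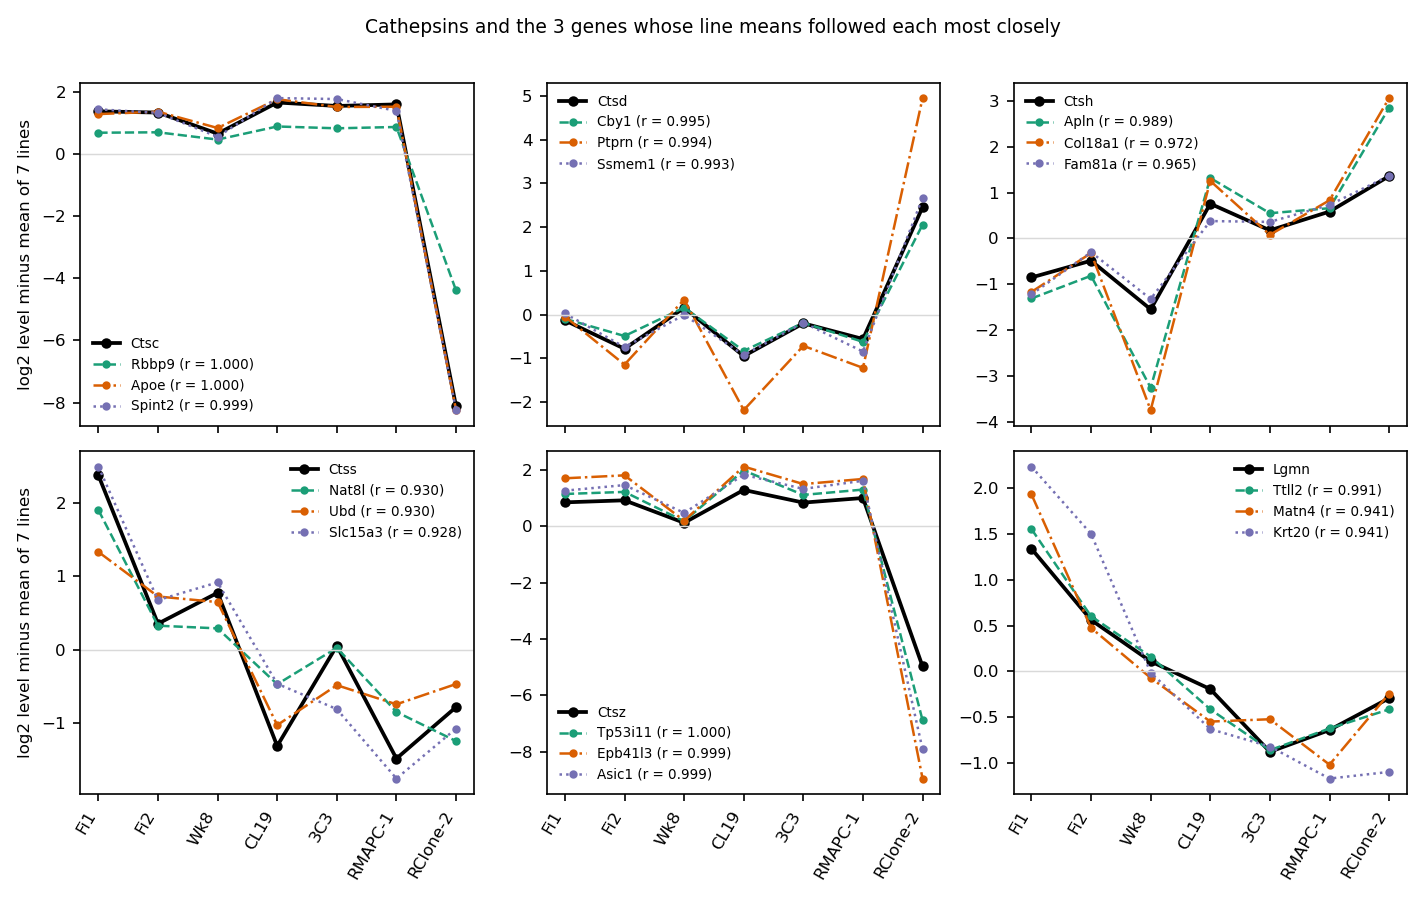
Line means of 6 cathepsins (black) and of the 3 genes most correlated with each (colours), as log2 level minus the mean of the 7 lines (y axis), by line (x axis), with Pearson r over 7 lines in the legends. Ctsc, Ctsz and their companions drop in RClone-2 alone, and Ctsd and its companions rise there. The line means of Ctsh, Lgmn and Ctss do not overlap between blastocyst and bone marrow lines, although Ctss did not pass in that comparison.

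Of 15 other cathepsins and relatives on the array, 6 passed the filter on dim probes, and against the mesenchymal line 1 was higher and 2 lower (median -0.32). Tinagl1, a secreted protein related to cathepsins, was higher by 1.33 ± 0.24 SE, and Ctsf and Ctsa, a cysteine protease and a carboxypeptidase that stabilizes lysosomal sialidase, were lower by 0.85 and 0.69 (limma adjusted p = 0.00575, 0.0414 and 0.0193). Ctsl, the endopeptidase cathepsin L, did not pass (0.04 ± 0.34 SE, limma adjusted p = 0.928). Between the origins 2 passed, both higher in the blastocyst lines: Ctse, an aspartic protease of endosomes, by at least 2.91-fold since no bone marrow array was above background, and Tinagl1 by 1.44 ± 0.18 SE. Ctse passed the background filter through the blastocyst lines alone, so its direction was largely set in advance.

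The inhibitors of these enzymes went both ways, but the kininogens Kng1 and Kng2 passed the background filter through RClone-2 alone. Their direction against RClone-2 was therefore largely set in advance. Against RClone-2, 3 of the 10 tested were higher and 3 lower (median 0.12). Ctla2a, which resembles a cathepsin propeptide and inhibits cysteine cathepsins, was 87.0-fold higher (log2 difference 6.44 ± 0.26 SE, limma adjusted p = 1.37e-05). Cst7, cystatin F, which is sorted to lysosomes and inhibits cathepsin C, was 6.86-fold higher (adjusted p = 0.00365), whereas the kininogens Kng2 (at least 1.72-fold lower, on no stem cell array above background) and Kng1 (above background on 1 of 12 stem cell arrays and both RClone-2 arrays) were lower. Cst3, the secreted inhibitor cystatin C, was higher by 0.92 ± 0.26 SE (adjusted p = 0.0294), and Cstb, the cytosolic cystatin B, did not pass (0.36 ± 0.24 SE, adjusted p = 0.263). Between the origins Cst7 was higher in the blastocyst lines (1.90 ± 0.34 SE, adjusted p = 0.0132) and Cst3 lower (-1.46 ± 0.20 SE, adjusted p = 0.00793), with line means of 5.62, 5.46 and 5.40 against 6.70, 6.82 and 7.34.

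Genes listed as other lysosomal hydrolases, which include the non-enzymes Gm2a, Npc2 and Psap, fell more often than they rose in the stem cell lines. Of 34 tested, 18 were lower and 3 higher than in RClone-2, with a median difference of -0.82 beside 0.03 for all genes. Among the largest were Gaa, which cuts glycogen (-3.70 ± 0.42 SE), and Arsb, a sulfatase of glycosaminoglycans (-2.59 ± 0.22 SE), with Manba, a mannosidase, in the other direction (3.398 ± 0.45 SE). Psap, the precursor of the saposins, did not pass (-0.38 ± 0.19 SE, adjusted p = 0.146). The count of lower hydrolases was 8 when limma tested against a 1.5-fold change and 11 without the A arrays. Between the origins 13 of the 34 were higher in the blastocyst lines and 1, Gm2a, was lower (median 0.31 beside -0.22 for all genes). Hyal1, a hyaluronidase, was at least 1.73-fold higher, and Gaa (1.82 ± 0.31 SE), Idua, which cuts heparan and dermatan sulfate (1.49 ± 0.19 SE), Pla2g15, a phospholipase (1.46 ± 0.23 SE), and Psap (0.91 ± 0.14 SE) also rose. The 13 became 2 with other background correction, 23 unscaled, 8 with spike-in scaling, 6 with slide as a term over arrays, 8 without Fi1, 6 without 3C3, 5 without RMAPC-1, 6 without the A arrays, and 0 within slides 1 and 3, with the slide pair as a term or against a 1.5-fold change. Among all genes, 8163 passed in the main fit, 1226 with other background correction, 7147 unscaled, 9751 with spike-in scaling and 2583 without the A arrays. Against a 1.5-fold change 595 passed, and within slides 1 and 3 or with the slide pair as a term 0 did.

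**Figure D4:**
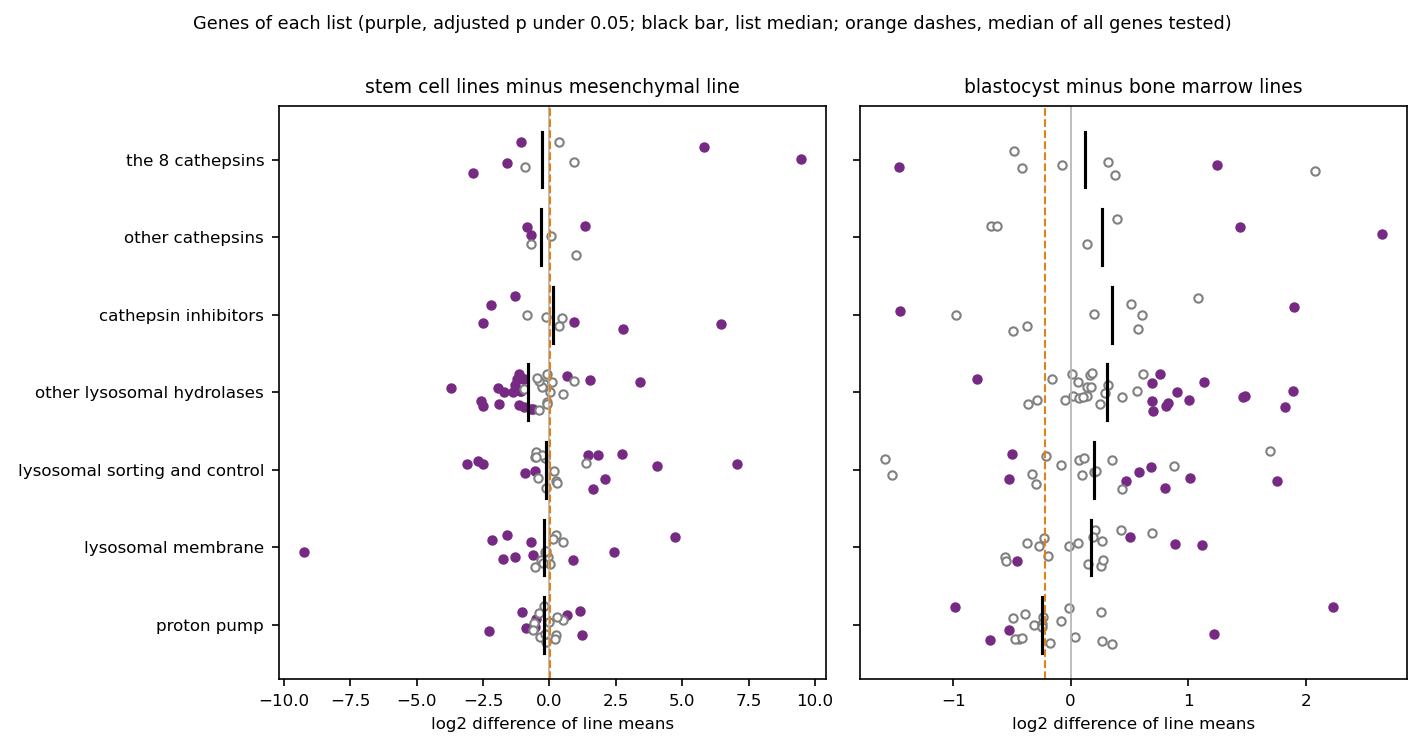
Log2 difference (x axis) of each gene of 7 lists (y axis), against the mesenchymal line on the left and between origins on the right, with purple symbols for an adjusted p under 0.05, a black bar at the list median and orange dashes at the median of all genes tested. The genes listed as hydrolases lie mostly left of 0 on the left (median -0.82) and right of 0 on the right (median 0.31).

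Genes that sort lysosomal enzymes or control the lysosome were mixed, 7 higher and 5 lower of 23 tested against RClone-2. Tfec, a relative of Tfeb, was at least 35.0-fold higher on the mean of the stem cell lines. It passed the background filter through these lines alone, so its direction was largely set in advance. Rragd, a GTPase of the nutrient-sensing complex on lysosomes, rose by 4.07 ± 1.15 SE and the sorting receptor Sort1 by 2.75 ± 0.45 SE, and the endocytic receptor Lrp1 was lower by 3.09 ± 0.41 SE. Wk8 stood apart for Tfec (-5.13, other stem cell lines -0.65 to -0.04). It did so too for Rragd (-3.47, others -0.55 to 0.33, RClone-2 -4.71). Tfeb was higher by 1.82 ± 0.42 SE (limma adjusted p = 0.0144). Neither mannose 6-phosphate receptor passed: M6pr differed by -0.16 ± 0.16 SE and Igf2r by -0.54 ± 0.72 SE (adjusted p = 0.440 and 0.572). Between the origins 6 rose and 2 fell in the blastocyst lines, led by Sort1 (1.76 ± 0.34 SE) and its ligand Grn (1.02 ± 0.25 SE), while Tfeb (-0.33 ± 0.32 SE), M6pr (0.11 ± 0.12 SE) and Igf2r (1.70 ± 0.54 SE) did not pass (adjusted p = 0.453, 0.489 and 0.0581).

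Of 20 lysosomal membrane genes, 3 were higher and 7 lower than in RClone-2. Slc11a1, a metal transporter, was 610-fold lower (log2 difference -9.25 ± 0.23 SE), above background on 8 of 12 stem cell arrays. The peptide transporter Abcb9 was at least 5.97-fold higher. Abcb9 passed the background filter through the stem cell lines alone, so its direction was largely set in advance. Laptm4b was higher by 2.43 ± 0.20 SE, Lamp3 passed as lower with 2 of 12 stem cell arrays above background, and Lamp1, a main protein of the lysosomal membrane, did not pass (-0.18 ± 0.25 SE, adjusted p = 0.585). Of 21 proton pump genes, 3 were higher and 6 lower, the largest being the subunit Atp6v0a4 at -2.26 ± 0.19 SE. Between the origins 3 membrane genes were higher and 1 lower, and among the pump subunits tested 2 passed as higher and 3 as lower.

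Markers of cells known for Ctsk, Ctss and Ctsc were read beside them. Of the 7 osteoclast markers on the array, Calcr, Itgb3, Oscar and Atp6v0d2 were on no array above background, and Mmp9 on 1, an RClone-2 array. Car2 was above background on every stem cell array and 1 RClone-2 array, and was 2.88 ± 0.83 SE higher in the stem cell lines (log2). The list's summed level was 15.1 to 21.5 (in units of the array's 75th percentile) in the blastocyst lines, 20.9 to 31.1 in the bone marrow lines and 0.0676 to 0.0701 in RClone-2. It was carried by Acp5, a lysosomal acid phosphatase, which was 9.48 ± 0.16 SE higher in the stem cell lines (limma adjusted p = 1.11e-06). Of 18 macrophage and blood cell markers, 8 to 13 were above background on a blastocyst array, 6 to 10 on a bone marrow array and 6 on each RClone-2 array. Itgam, Itgb2, Aif1 and Cd163 were on no array above background, and Ptprc (CD45) was above it on 3 blastocyst, 2 bone marrow and 1 control array. Cd14, Cd68, Csf1r, Fcer1g and Tyrobp were above background on every array, and Fcgr2b on 6 blastocyst, 1 bone marrow and 0 control arrays. The summed level was 1.23 to 1.93, 1.12 to 1.35 and 11.0 to 17.3 in the 3 groups, the last carried by Cd14 (level 3.72 in RClone-2). Mrc1, an endocytic receptor, was at least 9.31-fold higher in the stem cell lines, since no RClone-2 array was above background. It passed the filter through the stem cell lines alone, so its direction was largely set in advance. The part of these cells in the levels of Ctsc, Ctsk and Ctss was not tested.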

How the data were processed

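Per the labels, each array took Cy3-labelled RNA made from 1 µg of total RNA, to which 10 viral control transcripts had been added. Per the file headers, the authors extracted spots with Agilent Feature Extraction 10.7.3.1, whose deposited processed signal is a background-corrected intensity, not scaled between arrays. The deposited series table holds log2 values that, sorted, equalled log2 of that intensity and was not used further. Flags were deposited as other values of 0 or 1. Here log2 processed signal minus the array's 75th percentile was used, and outlier spots (65 to 193 per array) were left out. Of 41012 probes, 20576 were matched to a RefSeq gene symbol and the others kept the name in the files. A gene was tested where 1 line or more passed the background test on its A and B arrays, and its brightest probe represented it. Arrays of a line were averaged and 7 line means fitted with limma 3.58.1 in R 4.3.3 (3 groups, 4 residual degrees of freedom, Benjamini-Hochberg, threshold 0.05). The fit was tested on simulated data. The p-values measure the spread between these lines. "At least" folds set the bright group's mean against the lowest signal well above background. The members and lists were chosen with earlier results of these data known. The text names every member, up to 4 genes a list with the largest called difference, 8 fixed genes (Ctsl, Cst3, Cstb, Tfeb, Igf2r, M6pr, Lamp1, Psap), marker genes, and 3 like genes for each of the 6 members with a wide span. One gene that this rule names is not reported here.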

Additional observations from a re-analysis of the deposited data

Results flagged for a closer look

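The Ctss level on array A of 3C3 was -5.33, well above background, while the other 5 bone marrow arrays lay at -7.98 or lower (median of all 6, -8.10). Its gap to the next array was 0.885 of the group's range. The second Ctss probe on the same array was -7.98 and not above background. This was 1 of 16 groups of 6 arrays examined, and chance alone sets apart about 1 group in 20.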

How the results depend on the processing

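Of 848 member values recomputed under alternatives, 768 kept their direction and their side of the threshold. Between the origins the 2 members called became 1 with normexp background correction, spike-in scaling or slide as a term, and 0 with the slide pair as a term, within slides 1 and 3 (each 1 at an unadjusted limma p under 0.05) or when tested against a 1.5-fold change (2 unadjusted). Of all 24863 genes, 8163 passed between the origins in the main fit. This became 1226 with normexp, 9751 with spike-in scaling, 3199 of 24695 with slide as a term and 595 against a 1.5-fold change. It was 0 with the slide pair as a term and within slides 1 and 3. With 1 line or array set left out, the members called were 0 to 2 and all genes called 2583 to 8382. Against the mesenchymal line the 5 called became 3 in a test against a 1.5-fold change, and 4 to 6 with lines or arrays left out. For the bone marrow lines alone they became 3 and 4 to 6, and for the blastocyst lines alone 3 with the slide pair as a term and 4 to 5. The cause was not tested. With a replicate block for the array letter the counts were 3 between origins, 6 for all stem cell lines, 6 for the blastocyst lines and 5 for the bone marrow lines. Arrays of the same letter did not deviate together (r from -0.24 to 0.18 over 21 pairs of lines), so the letters do not pair the lines.

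No called difference changed sign. Signs turned for members that had not passed. Ctsb between origins became 0.29 (quantile), 0.0707 (percentile of probes above background on all arrays), 0.409 (unscaled) and 0.0490 (median centring), and -0.152 to 0.0282 with lines or arrays left out (above 0 without Fi2 and without the B arrays). Unscaled, Ctsc and Ctsz became 0.00044 and 0.0665. Against the mesenchymal line Lgmn became -0.16 (spike-in) and -0.0342 (either slide term), and Ctss ran from -0.0673 (without the B arrays) to 1.11. For the bone marrow lines Ctss became 0.0909 (normexp) and 0.0673 (slide terms and within slides 2 and 4), and -0.863 to 0.153 with lines or arrays left out (above 0 without CL19, RMAPC-1 or the A arrays). The median of all genes between origins was -0.22, 0.26 unscaled and -0.49 with spike-in scaling, and the share of called genes that were higher was 25.1%, 82.6% and 12.1%. Against the mesenchymal line that median was 0.03, 0.24 and -0.48, and the share 52.4%, 63.1% and 27.9%. The motif count was 1 member on 1 strand as on both. Signal near background limits Ctss, and the 1 control line limits every comparison with it.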
